A study of Mus musculus with 57 samples.

Results

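The Zscan4 family of the mouse was followed through oocytes and preimplantation embryos. Its members were the 6 rows of the deposited table whose Ensembl identifier belongs to Zscan4a, Zscan4b, Zscan4c, Zscan4d, Zscan4e or Zscan4f, out of 59119 rows. The rule took the rows by name and set no cutoff on their values, but earlier results of these data were known when the members were chosen. Their level was read in all 43 sample columns, which form 18 groups. In short, the 6 members were near 0 to a few FPKM in oocytes and zygotes and reached a summed 254 FPKM in early 2-cell embryos. In early 2-cell embryos with an MT2Mm knockout, 4 of the 6 were lower than in controls, while Zscan4b and Zscan4e did not pass the test.

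The libraries hold total RNA, read as paired ends of 150 bases. The wild-type stage series, of strain C57BL/6, ran from the MII oocyte (the mature egg) over the zygote, the 2-cell embryo taken early (E2-cell) and late (L2-cell), and the 4-cell embryo, 8-cell embryo and morula to the blastocyst, with 2 columns per stage, and 150 to 200 embryos were needed per sample. The wild-type time series, of strain BDF1, was taken 14, 17 and 20 hours after fertilization, with 2 columns each. In the same strain, embryos in which MT2Mm, the promoter repeat of the endogenous retrovirus MERVL, had been knocked out by CRISPR were compared with wild-type controls at Late1c and at Early2c, labels that appear to abbreviate late 1-cell and early 2-cell, with 3 samples in each of the 4 groups, and an age of 6 to 8 weeks is given for all of them. Knockout embryos came from MII oocytes injected with 5 to 10 pL holding 150 ng/uL of guide RNA together with 100 ng/uL of Cas9 mRNA, so the embryos of a sample need not all carry the same edit. LncR-3363, a long noncoding RNA, was knocked down in BDF1 embryos with an antisense oligonucleotide at 20 uM, giving 4 KD-1cell samples and 1 KD-2cell sample beside 4 wild-type controls (Ctrl). No injection is listed for either set of controls. The columns used for LncR-3363 carry another short name in the table and were assigned by the number of samples alone, which limits every statement on the knockdown. Neither LncR-3363 nor MT2Mm has a row under its name in the table, so the effect of the knockdown or knockout on its own target was not analysed here.

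Levels are in FPKM, read fragments divided by transcript length and by the fragments mapped in that library. They summed to between 311543 and 720832 per column and no columns were identical. The number of reads behind a value is unknown, so no counting interval is given and 0 means only that a gene is listed at 0. A set of 10 oocyte transcripts summed to 10.0 to 10.2 FPKM in blastocysts and to 4342 to 5316 FPKM in MII oocytes, and 10 blastocyst transcripts summed to 1902 to 2022 FPKM in blastocysts, so the ends of the stage series carried their defining markers. Markers of cumulus cells (12 genes) summed to at most 41.5 FPKM and those of sperm (7 genes) to at most 8.14 FPKM in any column. The cumulus maximum was in 4-cell embryos, where Amhr2 alone had a mean of 40.3 FPKM. In MII oocytes, zygotes and E2-cell embryos the cumulus markers summed to at most 9.13 FPKM.

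Full-length Zscan4 proteins have a SCAN domain, through which such proteins pair, and zinc fingers, which bind DNA. In the mouse the Zscan4 genes are known as the classic transient genes of the 2-cell embryo. They are also switched on in a small, changing fraction of embryonic stem cells. In those stem cells they are linked to the lengthening of telomeres by recombination and to loss of DNA methylation, and the homeobox factor Dux (named Duxf3 in the annotation used here) is known to activate them together with MERVL. Zscan4d has been described as the main member of the 2-cell embryo and Zscan4c as that of embryonic stem cells.

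All 6 members lie in 1 cluster on chromosome 7 of build GRCm38, and each has 4 exons in its longest GENCODE M21 transcript. Zscan4a spans chr7:10794242-10799057 and Zscan4b chr7:10900740-10905050, both on the minus strand. Zscan4c spans chr7:11005745-11010547 on the plus strand. Zscan4d spans chr7:11161374-11166159 and Zscan4e chr7:11306378-11310682 on the minus strand, and Zscan4f spans chr7:11397915-11402318 on the plus strand. GENCODE annotates Zscan4a as an unprocessed pseudogene and the other 5 as protein coding, whereas RefSeq counts Zscan4e too as a pseudogene. Zscan4-ps1, Zscan4-ps2 and Zscan4-ps3 lie in the same cluster and fall outside the rule, and they are given below as neighbours. Despite their names, GENCODE annotates each of these as protein coding. Of 44 further annotated genes in the 819871 bases from the first to the last Zscan4 gene, 5 reached a group mean of 1 FPKM in some group.

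RefSeq (GRCm38.p6) promoter windows were at hand for 4 members, each 300 bases long with 250 bases before and 50 bases from the annotated start. They are shown because the members move together and because their starts are near copies of each other. The windows are chr7:10905001-10905300 for Zscan4b and chr7:11166099-11166398 for Zscan4d, both read from the minus strand, and chr7:11005495-11005794 for Zscan4c and chr7:11397665-11397964 for Zscan4f, both read from the plus strand. Each is printed 5′ to 3′, and the capitals mark the letters TATAAA of a TATA box.
Zscan4b: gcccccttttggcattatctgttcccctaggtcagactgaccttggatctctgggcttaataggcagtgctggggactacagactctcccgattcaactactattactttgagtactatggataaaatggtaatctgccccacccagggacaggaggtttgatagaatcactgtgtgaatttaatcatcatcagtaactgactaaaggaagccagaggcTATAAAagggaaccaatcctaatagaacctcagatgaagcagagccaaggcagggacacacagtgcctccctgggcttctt
Zscan4c: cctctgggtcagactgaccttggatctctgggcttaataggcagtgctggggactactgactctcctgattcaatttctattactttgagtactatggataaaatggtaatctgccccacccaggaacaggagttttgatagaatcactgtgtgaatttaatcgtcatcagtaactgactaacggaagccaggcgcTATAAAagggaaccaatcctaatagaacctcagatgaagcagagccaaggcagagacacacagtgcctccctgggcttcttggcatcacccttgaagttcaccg
Zscan4d: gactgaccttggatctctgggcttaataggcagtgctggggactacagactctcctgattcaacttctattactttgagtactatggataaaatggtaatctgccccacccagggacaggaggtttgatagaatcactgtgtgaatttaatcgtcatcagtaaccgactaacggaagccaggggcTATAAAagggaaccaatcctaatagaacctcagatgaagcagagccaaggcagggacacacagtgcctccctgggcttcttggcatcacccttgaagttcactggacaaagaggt
Zscan4f: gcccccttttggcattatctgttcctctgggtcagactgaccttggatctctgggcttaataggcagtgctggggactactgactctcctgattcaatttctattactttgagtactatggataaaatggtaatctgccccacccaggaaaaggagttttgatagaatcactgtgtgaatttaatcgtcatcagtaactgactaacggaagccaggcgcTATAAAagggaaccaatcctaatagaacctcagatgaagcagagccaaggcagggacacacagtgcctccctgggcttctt

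The 4 windows were 95.3% to 99.3% identical over the bases that align, with Zscan4c and Zscan4f the closest pair and Zscan4b and Zscan4c the most distant. TATAAA stood once in each, 31 bases before the annotated start in Zscan4b and Zscan4f, 54 bases before it in Zscan4c and 65 bases before it in Zscan4d. TATAAA occurs on the same strand in 8.32% of 32851 promoters of this length, and on either strand in 13.6%. A match describes these letters and says nothing of binding.

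The transcripts of the members were also near copies of each other, which bears on every value below. Identity between the longest transcripts ran from 96.6% to 99.7% over the 15 pairs, highest for Zscan4b with Zscan4e and next for Zscan4c with Zscan4f at 99.6%. A window of 150 bases, the length of a read, was found in no other annotated gene for 87.0% of the windows of Zscan4d and 74.9% of those of Zscan4a. The share was 39.0% for Zscan4c, 31.6% for Zscan4b, 22.6% for Zscan4e and 13.8% for Zscan4f. The deposited table does not say how reads that fit several copies were counted, so levels of Zscan4d and Zscan4a rest mostly on sequence of their own while those of Zscan4f, Zscan4e, Zscan4b and Zscan4c can include reads of another copy. For Zscan4c 61% of the windows were shared with another Zscan4 gene. The pairs of Zscan4b with Zscan4e and of Zscan4c with Zscan4f cannot be counted as independent measurements.

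In zygotes and MII oocytes the family was low and made up mainly of Zscan4d and Zscan4c. The summed level was 8.08 and 2.52 FPKM in zygotes, against 4.53 and 4.37 FPKM in MII oocytes. Zscan4d had 4.27 and 1.65 FPKM in zygotes, against 2.99 and 1.78 FPKM in MII oocytes. Zscan4c had 1.64 and 0.620 FPKM in zygotes, against 1.29 and 1.24 FPKM in MII oocytes. The zygote columns thus lay on either side of the MII columns for both genes. Zscan4b and Zscan4e stayed at or under 0.220 FPKM in zygotes and were listed at 0 in both MII columns. Zscan4f had 1.75 and 0 FPKM in zygotes, against 0 and 1.15 FPKM in MII oocytes, and the 2 columns at 0 carry the same tag in their names. No member was called between zygotes and MII oocytes by limma at an adjusted p under 0.05, 0 of 6 against 3.76% of all rows, and none had an unadjusted p under 0.05. Zscan4a, Zscan4b and Zscan4e, under 1 FPKM in all 4 columns, passed the filter through later stages, and their tests at this step say little.

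Between the zygote and the early 2-cell stage every member rose. Zscan4f, the member with the highest level, had 70.8 and 67.8 FPKM in E2-cell embryos, against 1.75 and 0 FPKM in zygotes. Zscan4d had 56.8 and 51.3 FPKM in E2-cell embryos, against 4.27 and 1.65 FPKM in zygotes. Zscan4c had 49.2 and 46.7 FPKM in E2-cell embryos, against 1.64 and 0.620 FPKM in zygotes. For these 3 members the columns of the stages were far apart. Zscan4a had 39.0 and 36.9 FPKM in E2-cell embryos, against 0.205 and 0 FPKM in zygotes. Zscan4e had 25.7 and 31 FPKM in E2-cell embryos, against 0 and 0.137 FPKM in zygotes. Zscan4b, the lowest member at this stage, had 15.6 and 18.3 FPKM in E2-cell embryos, against 0.220 and 0.118 FPKM in zygotes. The order from Zscan4f over Zscan4d, Zscan4c, Zscan4a and Zscan4e to Zscan4b showed no overlap between neighbours, with only 2 columns each. In limma on log2(FPKM + 0.5), 6 of 6 members were called higher, as were 17.9% of all rows tested. The rise was 6.04 ± 0.76 for Zscan4f (log2, SE, adjusted p = 7.4e-05), 5.67 ± 0.29 for Zscan4e (adjusted p = 6e-08) and 4.09 ± 0.52 for Zscan4d (adjusted p = 7.9e-05). On this scale the smallest rise belonged to Zscan4d, the member with the highest mean in zygotes. With the zygote column of the same tag alone, the log2 rise of the members ran from 3.51 in Zscan4d to 5.84 in Zscan4e and all 6 were again called. In bulk samples a gene active in fewer cells and a gene with less RNA per cell cannot be told apart.

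**Figure D1:**
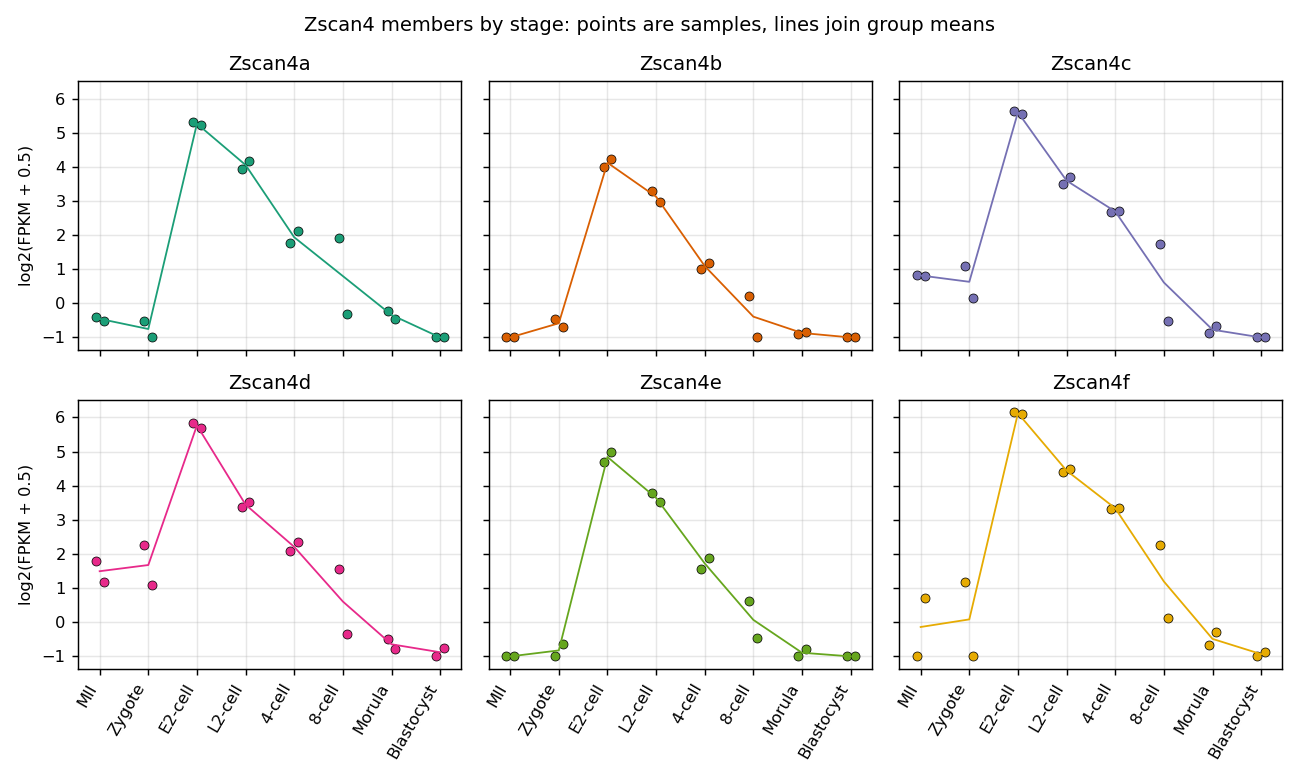
Level of each Zscan4 member as log2(FPKM + 0.5) on the vertical axis over the 8 stages of the C57BL/6 series, with 1 point per sample and a line through the group means. All 6 members peak in E2-cell embryos, where they run from 15.6 to 70.8 FPKM, and the 2 columns of the 8-cell stage lie apart.

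After the early 2-cell stage the summed level was lower at each later stage, and every member lay lower without overlap at the step to the L2-cell and at the step to the 4-cell stage. The summed level was 254 ± 3.5 FPKM in E2-cell embryos, 79.8 ± 1.7 FPKM in L2-cell embryos and 27.5 ± 2.2 FPKM in 4-cell embryos (SD, n = 2 each). Zscan4d had 9.86 and 11.0 FPKM in L2-cell embryos, against 56.8 and 51.3 FPKM in E2-cell embryos, a log2 change of -2.32 ± 0.52 (SE, limma adjusted p = 0.002). Zscan4c had 10.7 and 12.5 FPKM in L2-cell embryos, against 49.2 and 46.7 FPKM in E2-cell embryos, a log2 change of -2.0 ± 0.54 (adjusted p = 0.0059). These were the largest changes among the 6 at this step. Zscan4e changed by -1.20 ± 0.29 (adjusted p = 0.003) and Zscan4b by -1.0 ± 0.30 (adjusted p = 0.011) on the log2 scale. Zscan4f had 20.8 and 21.8 FPKM in L2-cell embryos and Zscan4a 14.7 and 17.6 FPKM, each below both its E2-cell columns. Their log2 changes of -1.68 ± 0.76 and -1.21 ± 0.51 had adjusted p of 0.07 and 0.053. So 4 of 6 members were called lower, as were 37.6% of all rows, and with a pseudocount of 0.1 FPKM only Zscan4c and Zscan4d were. All 6 had an unadjusted p under 0.05 and lay lower without overlap of the columns, as did 45.1% of rows. The tags in the column names differ between the E2-cell and L2-cell libraries, and this cannot be told apart from the stage.

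Between the late 2-cell and the 4-cell stage the 3 members called lower were Zscan4a, Zscan4b and Zscan4e, which had the smallest estimates at the step before. Zscan4a had 2.88 and 3.82 FPKM in 4-cell embryos, against 14.7 and 17.6 FPKM in L2-cell embryos, a log2 change of -2.12 ± 0.51 (SE, limma adjusted p = 0.0043). Zscan4b changed by -2.03 ± 0.30 (adjusted p = 0.00016) and Zscan4e by -1.92 ± 0.29 (adjusted p = 0.00018). Zscan4d, Zscan4c and Zscan4f changed by -1.24, -0.90 and -1.10, with adjusted p of 0.064, 0.18 and 0.24. The 3 calls of 6 compare with 26.2% of rows called lower. The columns of all 6 members did not overlap between the stages, as held for 37.1% of rows in the lower direction. Without either of the 8-cell columns, which enter this fit only through the shared estimate of spread, 5 members were called, and in a fit of the L2-cell and 4-cell columns alone all 6 were.

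The 8-cell columns differed from each other for the whole family. Zscan4f had 4.28 FPKM in replicate 1 and 0.598 FPKM in replicate 2, against 9.47 and 9.78 FPKM in 4-cell embryos. Zscan4a had 3.24 and 0.309 FPKM, against 2.88 and 3.82 FPKM in 4-cell embryos. Zscan4c had 2.82 and 0.202 FPKM, against 5.95 and 5.97 FPKM in 4-cell embryos. Replicate 1 was the higher column for 6 of 6 members, more than 2-fold on the log2(FPKM + 0.5) scale in each, whereas 1.86% of 12206 rows with at least 1 FPKM in either column were more than 2-fold higher in it. Of 25 other genes of the 2-cell embryo, 24 were higher in replicate 1 and 8 of them more than 2-fold. The 10 blastocyst transcripts summed to 428 FPKM in replicate 1 and 436 FPKM in replicate 2. These values come from the same columns and were looked at after the family's own spread was seen, and their cause was not tested. Between 8-cell and 4-cell embryos 5 of 6 members were called lower, as were 21.6% of rows, with Zscan4a the exception (log2 change -1.14 ± 0.51, limma adjusted p = 0.11). The count was 2 (Zscan4b and Zscan4e) without either 4-cell column, 3 without 8-cell replicate 2 or without any 1 column of the E2-cell, L2-cell, morula or blastocyst stage, and 2 again in a fit of the compared groups alone.

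In blastocysts and morulae the family was almost gone. The members summed to 0 and 0.140 FPKM in blastocysts, against 0.767 and 0.892 FPKM in morulae. In blastocysts Zscan4d at 0.0915 FPKM and Zscan4f at 0.0488 FPKM, both in replicate 2, were the only members above 0. Between morulae and 8-cell embryos Zscan4e alone was called lower (log2 change -0.96 ± 0.29, SE, limma adjusted p = 0.035), 1 of 6 beside 12.5% of rows called lower. The number rests on the 8-cell columns, since all 6 were called without 8-cell replicate 2 and none without replicate 1. None was called either without any 1 column of MII oocytes, morulae or blastocysts. No change can be read between blastocysts and morulae: every member was at most 0.353 FPKM in both and passed the filter through other stages, so the 0 of 6 called by limma (38.7% of rows were; none of the 6 had an unadjusted p under 0.05) say nothing of this step.

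In the stage series Zscan4d held on average more than 50% of the family sum before the 2-cell stage. At each stage from the E2-cell embryo to the morula its mean share was smaller than in MII oocytes or zygotes. It was lowest in L2-cell embryos. Zscan4d held 53.3% of the summed FPKM in MII oocytes, 59.0% in zygotes, 21.2% in E2-cell, 13.0% in L2-cell, 15.0% in 4-cell and 17.2% in 8-cell embryos and 17.8% in morulae. In morulae the 2 columns gave 26.8% and 8.88%. Blastocysts have no mean share, as 1 column sums to 0, and in the other Zscan4d held 65.2% of 0.140 FPKM. The mean sums were 4.45 FPKM in MII oocytes, 5.30 FPKM in zygotes, 8.06 FPKM in 8-cell embryos and 0.830 FPKM in morulae. Whether the share depends on the level was not tested. Zscan4f held 27.2% in E2-cell, 26.7% in L2-cell and 35.0% in 4-cell embryos. In L2-cell embryos Zscan4b held 10.4% and Zscan4e 15.1%, where both were at 0 in MII oocytes. Zscan4d held 36.6%, 34.9% and 38.0% of the sum at 14, 17 and 20 hours. It held 13.3% in Early2c controls and 38.9% in Late1c controls. With 2 columns per stage these shares are given without a test.

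**Figure D2:**
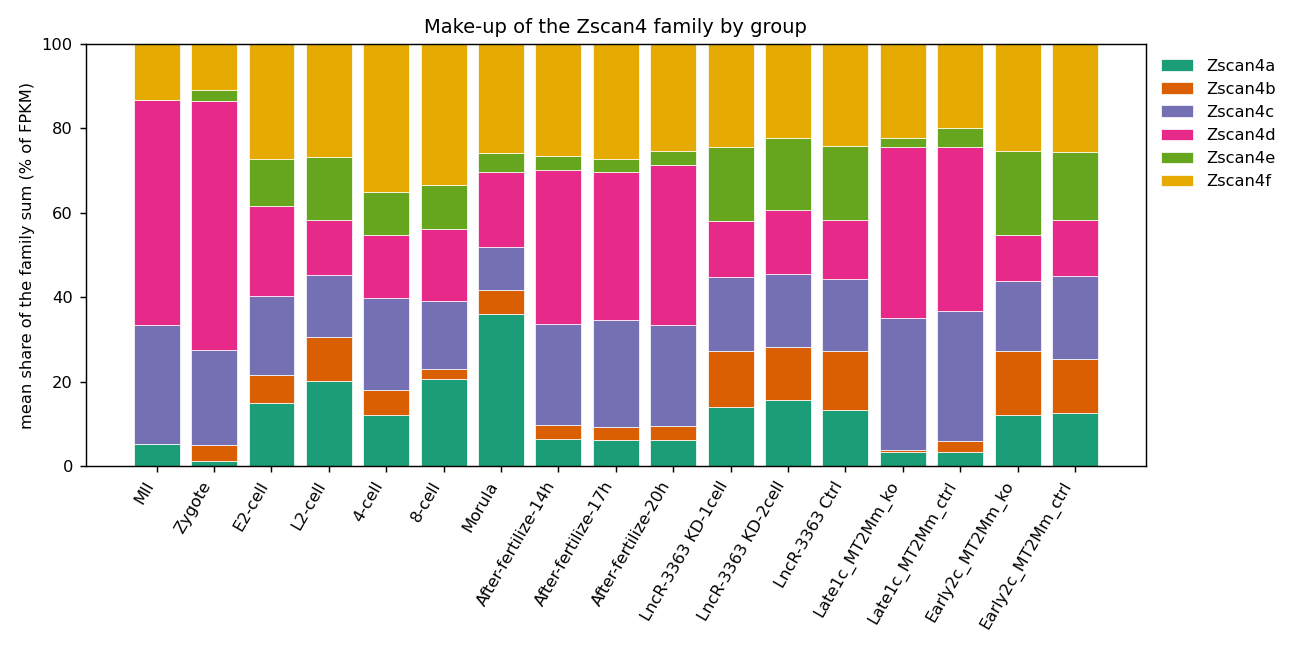
Mean share of the summed Zscan4 FPKM held by each member, in percent on the vertical axis, for 17 groups on the horizontal axis; blastocysts are left out because 1 of their columns sums to 0. Zscan4d fills 53.3% of the bar in MII oocytes and 13.3% in Early2c_MT2Mm_ctrl, while Zscan4b and Zscan4e are small in every group before the early 2-cell stage.

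Over the hours after fertilization the family had slightly higher values at each time, with no call. The members summed to 4.61 and 4.04 FPKM at 14 hours, 5.34 and 5.19 FPKM at 17 hours and 6.56 and 6.07 FPKM at 20 hours. The FPKM totals of the columns were higher at each time too, from 325097 and 337435 at 14 hours to 395093 and 403571 at 20 hours. Of these totals the family made up 0.001417% and 0.001197% at 14 hours and 0.001511% and 0.001416% at 17 hours. At 20 hours it made up 0.001659% and 0.001504%, so neighbouring times overlapped on this measure. Zscan4d had 1.55 and 1.59 FPKM at 14 hours, 1.88 and 1.80 FPKM at 17 hours and 2.62 and 2.19 FPKM at 20 hours. Zscan4c had 1.21 and 0.880 FPKM at 14 hours, 1.36 and 1.33 FPKM at 17 hours and 1.52 and 1.48 FPKM at 20 hours. The columns of each time lay above those of the time before for both genes. Zscan4a, Zscan4b and Zscan4e stayed at or under 0.446 FPKM and were not tested, having failed the minimum of 1 FPKM. Of the 3 members tested, 0 were called at 17 against 14 hours, where 37.0% of rows were, and none had an unadjusted p under 0.05. At 20 against 17 hours 0 were called, where 19.6% were, and Zscan4d alone had an unadjusted p under 0.05 (log2 change 0.31 ± 0.10, SE, limma adjusted p = 0.086). The 3 members tested were higher at 17 than at 14 hours without overlap of the columns, as were 41.8% of rows tested. They were also higher at 20 than at 17 hours without overlap, as were 20.7%. Among the untested members, Zscan4a, Zscan4b and Zscan4e lay higher without overlap at 17 hours, and Zscan4b and Zscan4e again at 20 hours. Both comparisons share the 17 hour columns.

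Zscan4-ps1, whose transcript is 96.83% to 97.55% identical to those of the members, had another pattern. It had 16.6 and 11.6 FPKM in MII oocytes, 21.1 and 11.6 FPKM in zygotes and 24.1 and 26.9 FPKM in E2-cell embryos. It was thus already expressed where the 6 members together reached 8.08 FPKM at most. At the step to the early 2-cell stage Zscan4-ps1 was not called (log2 change 0.68 ± 0.51, SE, limma adjusted p = 0.31). Zscan4-ps2 and Zscan4-ps3 were called higher at that step, by 5.40 ± 0.58 and 5.65 ± 0.68, like the members. Between Late1c and Early2c of the control embryos it was called higher, by 1.31 ± 0.10, where the smallest change of a member was 4.43. In L2-cell embryos Zscan4-ps1 had 2.95 and 3.26 FPKM and was called lower than in E2-cell embryos (log2 change -2.85 ± 0.51, adjusted p = 0.0004). Of its 150-base windows 87.4% were found in no other annotated gene. Over the 18 group means of log2(FPKM + 0.5), Zscan4-ps1 correlated with the members at Pearson's r of 0.42 to 0.70, and the 15 pairs of members at 0.935 to 0.998. These groups share libraries and stage, and near-identical members share reads.

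**Figure D3:**
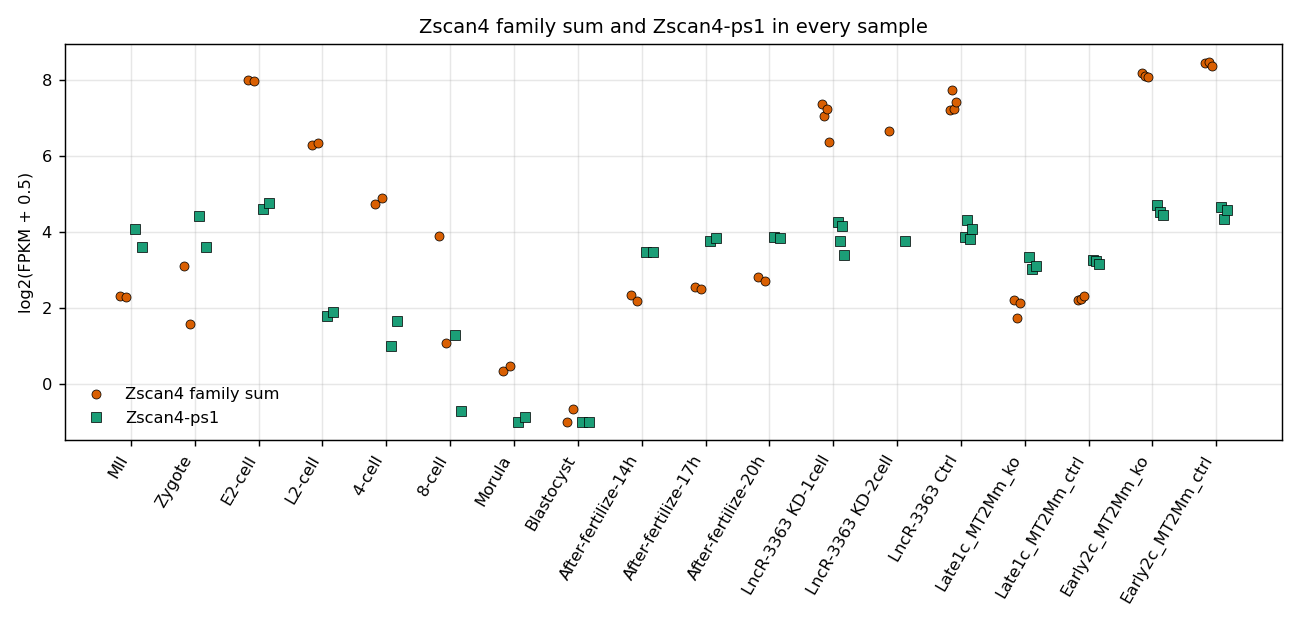
Summed level of the 6 Zscan4 members (circles) and level of Zscan4-ps1 (squares) as log2(FPKM + 0.5) on the vertical axis in every sample of the 18 groups on the horizontal axis. Zscan4-ps1 lies above the family sum in MII oocytes (16.6 and 11.6 FPKM), in zygotes, at 14 to 20 hours and at Late1c, and below the sum of its own column from the early 2-cell stage to the morula.

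In Early2c embryos the MT2Mm knockout went with lower levels of 4 members, and the family fell to a sum of 293, 273 and 269 FPKM in MT2Mm_ko, against 353, 356 and 333 FPKM in MT2Mm_ctrl. Zscan4c had 46.3, 45.5 and 46.6 FPKM in knockout embryos, against 67.0, 68.6 and 68.0 FPKM in controls, a log2 change of -0.55 ± 0.06 (SE, limma adjusted p = 1.9e-05). Zscan4d had 33.0, 27.9 and 28.7 FPKM in knockout embryos, against 50.5, 45.6 and 42.6 FPKM in controls, a change of -0.62 ± 0.14 (adjusted p = 0.003). Neither gene's groups overlapped. Zscan4a had 33.9, 34.5 and 32.7 FPKM in knockout embryos, against 45.0, 45.4 and 41.5 FPKM in controls, a change of -0.38 ± 0.08 (adjusted p = 0.0019). Zscan4f had 69.6, 71.8 and 70.2 FPKM in knockout embryos, against 87.8, 92.5 and 85.1 FPKM in controls, a change of -0.32 ± 0.08 (adjusted p = 0.005). These groups too lay apart in every sample. Zscan4b had 48.6, 40.1 and 38.6 FPKM in knockout embryos, against 44.9, 46.9 and 40.6 FPKM in controls, a change of -0.06 with a 95% interval of -0.25 to 0.13. Zscan4e had 61.3, 53.6 and 52.4 FPKM in knockout embryos, against 57.3, 56.9 and 55.2 FPKM in controls, a change of -0.02 with an interval of -0.17 to 0.12. For this near-identical pair the groups overlapped and the adjusted p were 0.6 and 0.81.

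The 4 calls of 6 compare with 15.6% of rows called lower (33.4% were called higher), and 19.1% of rows lay lower without overlap. The median row stood at 0.11 on the log2 scale. Scaling the columns by the median of ratios moved that median to -0.02. On that scale the log2 changes were -0.70 for Zscan4c, -0.77 for Zscan4d, -0.53 for Zscan4a and -0.47 for Zscan4f, and again 4 were called. Zscan4b at -0.21 (adjusted p = 0.073) and Zscan4e at -0.17 (adjusted p = 0.057) were not called. Zscan4-ps1, Zscan4-ps2 and Zscan4-ps3 changed by 0.03, -0.18 and -0.14 in the unscaled fit, and none was called. The knockout samples of Zscan4-ps2 and Zscan4-ps3 nevertheless all lay below the controls. The transcripts of Zscan4-ps2 and Zscan4f are 99.78% identical, so these cannot be counted as independent measurements. Beside these values, the 10 oocyte transcripts summed to 987 to 1104 FPKM in knockout embryos, against 766 to 798 FPKM in controls, and the 10 blastocyst transcripts to 91.3 to 99.4 FPKM, against 102 to 114 FPKM; their part in the lower levels was not tested.

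At Late1c the family was low in both groups. It summed to 4.17, 2.84 and 3.93 FPKM in knockout embryos, against 4.18, 4.24 and 4.51 FPKM in controls. Zscan4b had 0.0268, 0.00604 and 0.0277 FPKM in knockout embryos, against 0.113, 0.121 and 0.0737 FPKM in controls. Zscan4e had 0.0949, 0.0599 and 0.0745 FPKM in knockout embryos, against 0.166, 0.211 and 0.186 FPKM in controls. Here it was this pair, with Zscan4c, whose knockout samples all lay below the controls, as did 9.11% of rows. No member was called by limma, 0 of 6 where 0.114% of rows were, and 3 had an unadjusted p under 0.05. Zscan4a, Zscan4b, Zscan4e and Zscan4f were under 1 FPKM in all 6 Late1c samples and passed the filter through Early2c, so their tests at Late1c say little. With a pseudocount of 0.1 FPKM, which weighs low values more, Zscan4b and Zscan4e were called lower, by 0.75 and 0.71 on the log2 scale (adjusted p of 0.04 and 0.015).

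**Figure D4:**
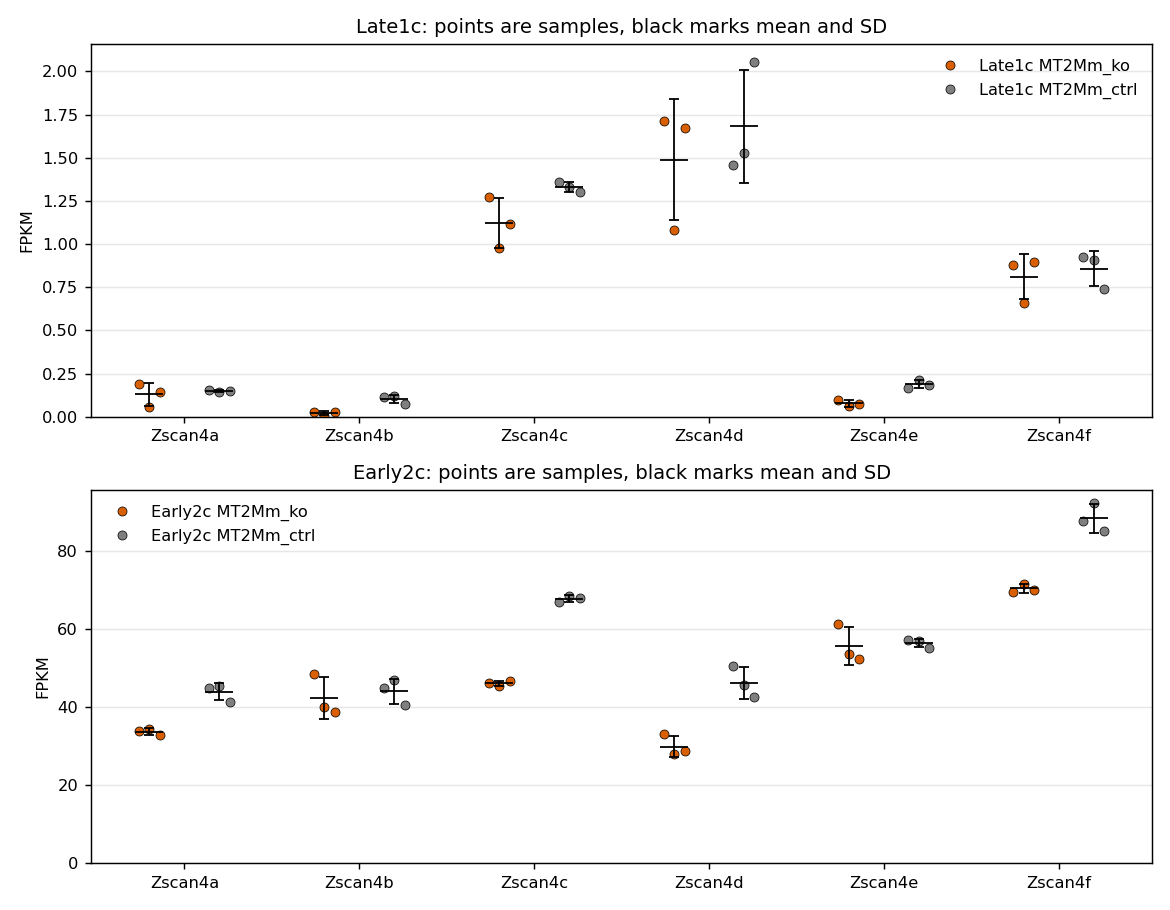
FPKM of each Zscan4 member on the vertical axis in MT2Mm_ko (orange, left of each pair) and MT2Mm_ctrl (grey, right), at Late1c above and Early2c below, with 1 point per sample and the mean and SD in black. At Early2c the groups of Zscan4a, Zscan4c, Zscan4d and Zscan4f lie apart, with Zscan4c at 45.5 to 46.6 FPKM in knockout embryos and at 67.0 to 68.6 FPKM in controls, while those of Zscan4b and Zscan4e overlap.

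For Zscan4c the effect of the knockout at Early2c differed from that at Late1c, by -0.37 ± 0.09 on the log2 scale (SE, limma interaction, adjusted p = 0.0055). Zscan4c had 0.978 to 1.36 FPKM at Late1c, where the pseudocount of 0.5 FPKM shrinks its change in part. Zscan4a was called too (-0.33 ± 0.11, adjusted p = 0.036), which makes 2 of 6 beside 11.6% of rows called in this direction. Its Late1c values of 0.0558 to 0.190 FPKM lie below the pseudocount, which holds its Late1c change near 0, so its difference largely restates the Early2c change and shows no difference between the stages. The same limit holds for Zscan4b and Zscan4e. Zscan4f, at 0.660 to 0.925 FPKM at Late1c, lay above the pseudocount but under the filter of 1 FPKM. Zscan4d at -0.48 ± 0.20 and Zscan4f at -0.27 ± 0.11 had adjusted p of 0.073 and 0.076. Zscan4b and Zscan4e had differences of the other sign, 0.15 ± 0.13 and 0.23 ± 0.09, with adjusted p of 0.37 and 0.072, and with scaled columns that of Zscan4b was -0.01. Zscan4c was called under every alternative, alone without a filter and with Zscan4a, Zscan4d and Zscan4f at a pseudocount of 1 FPKM or with scaled columns. With a pseudocount of 0.1 FPKM Zscan4b and Zscan4e were called upward beside Zscan4c downward. The number called was 4 without Late1c_MT2Mm_ko replicate 2, and 1 without either of the other two Late1c_MT2Mm_ko samples, any 1 of the 3 Early2c_MT2Mm_ko samples, or replicate 1 or 2 of either set of controls.

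Within the family, Zscan4b and Zscan4e took a larger share and Zscan4c and Zscan4d a smaller one in the Early2c knockout samples. Zscan4b held 15.2% ± 1.2 of the sum in knockout embryos and 12.7% ± 0.5 in controls, and Zscan4e 20.0% ± 0.8 in knockout embryos and 16.3% ± 0.3 in controls (SD, n = 3 each). Zscan4c held 16.6% ± 0.8 in knockout embryos and 19.6% ± 0.7 in controls, and Zscan4d 10.7% ± 0.5 in knockout embryos and 13.3% ± 0.9 in controls. For these 4 members the samples did not overlap, and the two-sided exact permutation test gave p = 0.1, the smallest that 3 samples against 3 can give, or 0.3 adjusted over the 18 shares tested. Zscan4a and Zscan4f had exact p of 0.2 and 1. At Late1c Zscan4b held 0.521% ± 0.269 in knockout embryos and 2.40% ± 0.66 in controls, and Zscan4e 2.09% ± 0.19 in knockout embryos and 4.36% ± 0.53 in controls, again at an exact p of 0.1 each. The shares of the pair were lower in knockout embryos at Late1c, where both genes were at or under 0.211 FPKM, and higher at Early2c. At Early2c the levels of the pair overlapped between the groups while those of the other members were lower. The larger share there does not show a rise of the pair. As the 2 genes are near-identical and no adjusted p was under 0.3, no reversal between the stages can be read from these shares.

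All members were called higher at Early2c than at Late1c, in controls and in knockout embryos. In control embryos Zscan4e had 57.3, 56.9 and 55.2 FPKM at Early2c, against 0.166, 0.211 and 0.186 FPKM at Late1c, a log2 change of 6.37 ± 0.07 (SE, limma adjusted p = 7.3e-14). Zscan4d, the member with the smallest change, rose by 4.43 ± 0.14 (adjusted p = 5.1e-11). The 6 of 6 called higher in controls compare with 33.5% of rows, with a median log2 change of 6.07. In knockout embryos the 6 of 6 compare with 33.9% of rows, with changes from 3.94 in Zscan4d to 6.61 in Zscan4e. The log2 changes of the knockout at Early2c, at most 0.62 in size, were small beside these.

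In the LncR-3363 experiment the members had lower means in the knockdown, and none passed the test. The family summed to 164, 132, 150 and 82.4 FPKM in KD-1cell and to 101 FPKM in the single KD-2cell sample, against 148, 215, 150 and 170 FPKM in Ctrl. Zscan4f had 40.0, 31.4, 32.1 and 23.1 FPKM in KD-1cell, against 37.0, 49.6, 36.6 and 40.5 FPKM in Ctrl, a log2 change of -0.38 ± 0.16 (SE, limma adjusted p = 0.076). Zscan4d had 21, 18, 19.1 and 11.7 FPKM in KD-1cell, against 19.3, 29.1, 22.9 and 23.6 FPKM in Ctrl, a change of -0.45 ± 0.18 (adjusted p = 0.069). Their groups overlapped through KD-1cell replicate 1. Zscan4c had 29.2, 24.8, 22.6 and 15.1 FPKM in KD-1cell, against 26.3, 34.2, 26.6 and 29.3 FPKM in Ctrl. Zscan4b had 21.8, 16.4, 24.9 and 8.96 FPKM in KD-1cell, against 18.3, 32.4, 20.1 and 25.2 FPKM in Ctrl. KD-1cell replicate 4 was the lowest sample of all 8 for each of the 6 members. Zscan4e and Zscan4a had log2 changes of -0.41 and -0.30, with 95% intervals of -1.03 to 0.21 and -0.78 to 0.17.

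Of the 6 members 0 were called between KD-1cell and Ctrl, where 43.7% of rows were, and Zscan4d and Zscan4f had an unadjusted p under 0.05. The median change of the members was -0.40, beside 0.12 for all rows. With the columns scaled by the median of ratios, which brought the median row to 0.01, Zscan4c, Zscan4d and Zscan4f were called lower, with log2 changes of -0.50, -0.58 and -0.51. Without KD-1cell replicate 1 the same 3 members were called lower in the unscaled fit. Of the neighbours, Zscan4-ps2 was called lower (-0.50 ± 0.15, adjusted p = 0.025). No member's share passed the test, the lowest of the exact permutation p being 0.257 where 4 samples against 4 could reach 0.0286. The 10 oocyte transcripts summed to 1477 to 1526 FPKM in KD-1cell, against 967 to 1065 FPKM in Ctrl, and their part was not tested. Despite the words 1cell in the label, the family sums of KD-1cell were above those of the zygote and Late1c columns, which ended at 8.08 FPKM, and the labels do not give the stage at which these embryos were taken.

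**Figure D5:**
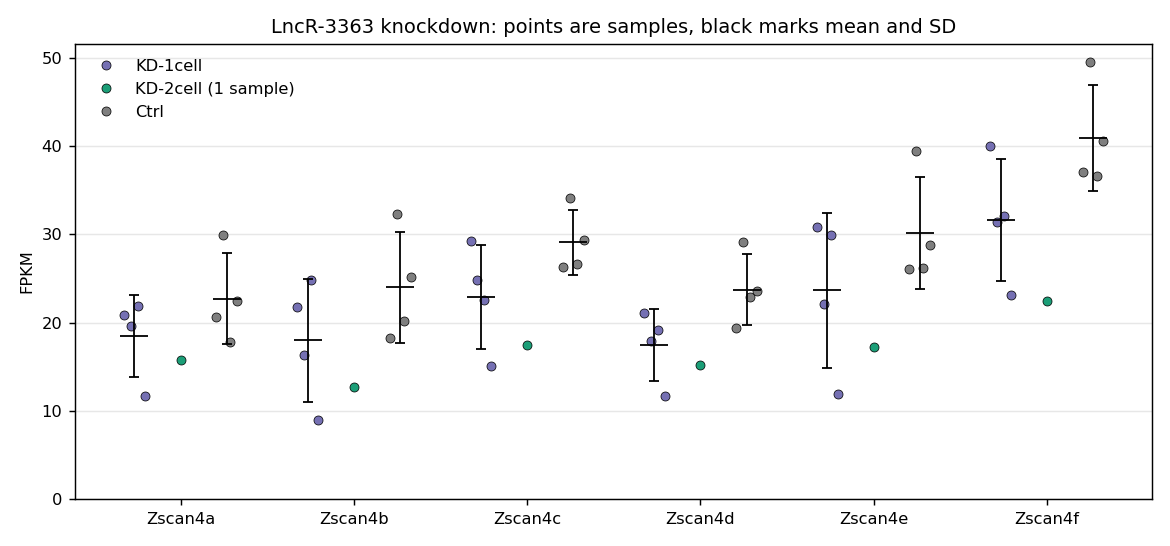
FPKM of each Zscan4 member on the vertical axis in KD-1cell (4 samples, purple), KD-2cell (1 sample, green) and Ctrl (4 samples, grey) of the LncR-3363 experiment, with the mean and SD in black for the groups of 4. The KD-1cell and Ctrl points overlap for all 6 members, and Zscan4f has 23.1 to 40.0 FPKM in KD-1cell and 36.6 to 49.6 FPKM in Ctrl.

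Genes for 4 factors known in mouse embryonic stem cells to act before the Zscan4 genes are given beside the family. Duxf3 had 9.16 ± 0.16 FPKM in E2-cell embryos and 0.0786 ± 0.0341 FPKM in zygotes (SD, n = 2 each), a log2 change of 4.06 ± 0.11 (SE, limma adjusted p = 2.5e-09). In Early2c embryos Duxf3 had 6.71 ± 1.42 FPKM in MT2Mm_ko and 3.70 ± 0.45 FPKM in MT2Mm_ctrl (SD, n = 3 each), a change of 0.77 ± 0.14 (adjusted p = 0.00078). Dppa2 and Dppa4, which act upstream of Dux, changed by 0.59 and 0.48 there, and Nelfa by 0.39, so 4 of 4 were called higher, as were 33.4% of rows. That was 3 of 4 with scaled columns. At Late1c 0 of 4 were called between knockout embryos and controls by limma, where 0.114% of rows were, with a median log2 change of -0.12. In KD-1cell against Ctrl 3 of 4 were called higher, as were 29.8% of rows, with Duxf3 at 15.4 ± 3.8 FPKM in KD-1cell and 6.36 ± 1.63 FPKM in Ctrl (SD, n = 4 each, change 1.20 ± 0.21, adjusted p = 0.0014). The higher Duxf3 thus stood beside 4 members called lower in the knockout and none called in the knockdown. Duxf3 is itself repeated in the genome, and its copies may share reads.

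Of 11 factors whose loss is known to raise Zscan4 in mouse embryonic stem cells, 10 were tested at Early2c and 4 were called higher in knockout embryos, a share near the 33.4% of all rows called higher. They were the nucleolar protein gene Ncl (61.8 ± 1.1 FPKM in knockout embryos and 35.0 ± 0.9 FPKM in controls), the chromatin assembly genes Chaf1b and Chaf1a, and the histone methyltransferase gene Setdb1. With scaled columns the split was 3 higher and 4 lower. Of 11 genes of telomeres, recombination and DNA methylation, 7 were tested and 6 were called higher (33.4% of all rows were), led by Terf1, which encodes a protein that coats telomeres (20.3 ± 2.6 FPKM in knockout embryos and 5.13 ± 0.66 FPKM in controls, log2 change 1.88 ± 0.10, adjusted p = 1.3e-07). Tert, the telomerase subunit, changed by 0.70 and the maintenance methyltransferase gene Dnmt1 by 0.66, and with scaled columns the split was 4 higher and 1 lower. Of 25 other genes with a SCAN domain, 21 were tested between E2-cell embryos and zygotes, with a median log2 change of -0.10. Of these 3 were called higher and 3 lower, where 17.9% and 26.2% of all rows were. The largest fall among them was in Zkscan14, at 9.42 ± 0.43 FPKM in E2-cell embryos and 38.4 ± 3.1 FPKM in zygotes (-1.97 ± 0.14, adjusted p = 6.7e-07).

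Among 25 other genes of the 2-cell embryo, 22 were called higher and 1 lower in E2-cell embryos against zygotes, with a median log2 change of 4.51. Of all rows 17.9% were called higher and 26.2% lower, and the 25 were listed with earlier results of these data known. Zfp352, a zinc finger gene, had 45.3 ± 0.3 FPKM in E2-cell embryos and was listed at 0 in both zygote columns. In Early2c embryos 2 of the 25 were called higher and 5 lower in the knockout, where 33.4% and 15.6% of all rows were. The median of the 25 was -0.05, beside -0.35 for the 6 Zscan4 members and 0.11 for all rows. The largest fall was in Spz1, at 4.35 ± 0.05 FPKM in knockout embryos and 13.6 ± 0.3 FPKM in controls (-1.54 ± 0.15, adjusted p = 7.4e-06), and the largest rise in Arg2, an arginase gene (1.36 ± 0.10, adjusted p = 1.3e-06). With scaled columns 10 were called lower and 2 higher. In KD-1cell against Ctrl 3 of the 25 were called higher and 2 lower, where 29.8% and 13.9% of all rows were. With scaled columns 1 of the 25 was called higher and 6 lower.

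By summed level, the lowest groups were blastocysts (0.0702 FPKM), morulae (0.830 FPKM) and Late1c_MT2Mm_ko (3.65 FPKM). Then came Late1c_MT2Mm_ctrl (4.31 FPKM), the 14-hour group (4.32 FPKM) and MII oocytes (4.45 FPKM), whose samples overlapped between neighbours. The 17-hour, zygote, 20-hour and 8-cell groups followed with means of 5.26, 5.30, 6.31 and 8.06 FPKM, and neighbours among them overlapped too. Above them lay 4-cell (27.5 FPKM) and L2-cell embryos (79.8 FPKM), KD-2cell (101 FPKM), KD-1cell (132 FPKM), Ctrl (171 FPKM), E2-cell embryos (254 FPKM), Early2c_MT2Mm_ko (278 FPKM) and Early2c_MT2Mm_ctrl (347 FPKM). Among these, KD-2cell, KD-1cell and Ctrl overlapped and the other neighbours did not. Levels of the C57BL/6 and BDF1 experiments are set side by side without a test, since strain and experiment cannot be told apart.

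By likeness of pattern, the rows nearest to the mean of the 6 members over the 18 group means of log2(FPKM + 0.5) were Gm2035, Gm20767, Gm6189, Gm13040, Gm48388 and Gm12800, with Pearson's r of 0.991, 0.990, 0.989, 0.988, 0.988 and 0.986. They were sought among 11364 rows with a group mean of at least 5 FPKM, whose median r was -0.17, and none lies on chromosome 7. Gm2035, on chromosome 12, had a mean of 21.9 FPKM in E2-cell embryos and 0.322 FPKM in zygotes. It had a mean of 21.5 FPKM in Early2c_MT2Mm_ko and 30.0 FPKM in Early2c_MT2Mm_ctrl. Gm6189, on chromosome 1, had 33.2 FPKM in E2-cell embryos and 0.263 FPKM in zygotes, and 40.9 FPKM in Early2c_MT2Mm_ko beside 39.3 FPKM in Early2c_MT2Mm_ctrl. The groups share stage and libraries, so r describes likeness only.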

How the data were processed

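Total RNA of mouse oocytes and embryos was analysed from 1 deposited table of FPKM, 59119 rows by 43 columns for 57 labelled samples in 18 groups. The sources used here do not say which samples were merged into a column. Per the labels' protocols, libraries were made with a TruSeq Stranded Total RNA kit, or with version 2 of the SMARTer Stranded kit where RNA was scarce, without saying which sample had which. Per the submitters' processing notes, the authors used HISAT2 2.1.0 and cutadapt 1.18 on build GRCm38, with StringTie 1.3.4d, Cuffdiff 2.2.1 and Cufflinks, in roles that are not stated; how multiply mapped reads were counted is not given either. FPKM values are the authors' own and were used as deposited. Low FPKM values did not fall on whole reads, so depth is unknown. Rows were named by Ensembl identifier from GENCODE M21, which held 54409 of 54446.

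A row was kept for a fit where the number of samples at 1 FPKM or more was at least that of its smallest group. Kept rows were compared on log2(FPKM + 0.5) by limma 3.58.1 (lmFit, eBayes with trend, two-sided) in R 4.3.3. The 8 stages, the 3 times, the 4 MT2Mm groups and KD-1cell with Ctrl each formed a fit. A call is a Benjamini-Hochberg adjusted p under 0.05 over all rows tested. Fold changes on this scale understate those of low genes. Shares of the family sum were compared by exact permutation over samples. Transcripts were aligned with Biopython, and windows of 150 bases were searched in all GENCODE M21 transcripts. Other computations used pandas 2.3.3, SciPy 1.17.1 and NumPy 2.4.6 under Python 3.11.15, with Matplotlib for figures. Scripts were tested on simulated data. The members and gene lists were chosen with earlier results of these data known. Named genes are the 6 members, their 3 neighbours, up to 4 genes of each list and the 6 rows of most similar pattern. Labels do not say whether replicates came from separate cultures, so p-values measure the spread between these samples, which may be technical. Alternatives were columns scaled by the median of ratios, a pseudocount of 0.1 or 1 FPKM, no filter, a replicate block, each sample left out, fits of the compared groups alone, columns of 1 tag alone, KD-2cell as an added group, and the summed family.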

Additional observations from a re-analysis of the deposited data

Results flagged for a closer look

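The test of the MT2Mm knockout effect at Early2c against that at Late1c (limma interaction) called 2 of the 6 members at an adjusted p under 0.05. For only 1 of them, Zscan4c, did the Late1c levels lie near or above the filter of 1 FPKM, at 0.978 to 1.36 FPKM. The pseudocount of 0.5 FPKM shrinks its Late1c change as well, and Zscan4c was also called at a pseudocount of 0.1 FPKM. For Zscan4c the log2 change at Early2c minus that at Late1c was -0.3731 (adjusted p = 0.0055): the knockout change was -0.55 at Early2c and -0.18 at Late1c, and all 3 knockout samples were below all 3 controls at both stages. For Zscan4a the difference was -0.3283 (adjusted p = 0.036), with a change of -0.38 at Early2c and -0.05 at Late1c. At Late1c Zscan4a was listed at 0.190, 0.0558 and 0.142 FPKM in knockout embryos, against 0.157, 0.142 and 0.148 FPKM in controls, levels under the filter of 1 FPKM at which the pseudocount of 0.5 FPKM holds the change near 0. The call of Zscan4a therefore does not show a difference between the stages, and without the filter only Zscan4c was called. Nothing else among the family's values stood out by the distance of 1 sample from the others, a check that needs groups of at least 4 samples and so covered only KD-1cell and Ctrl.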

How the results depend on the processing

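The count of called members was the same under every alternative for zygote against MII (0), E2-cell against zygote (6), both times (0 of 3 tested) and both steps from Late1c to Early2c (6). For Early2c MT2Mm_ko against Early2c MT2Mm_ctrl it was 4, and 3 with a pseudocount of 0.1 FPKM. A pseudocount of 0.1 FPKM gave 2 for L2-cell against E2-cell, 3 for 8-cell against 4-cell, 2 for Late1c MT2Mm_ko against Late1c MT2Mm_ctrl, and 3 for the Early2c knockout effect minus the Late1c effect, where the balance turned from 2 lower to 2 higher and 1 lower. A pseudocount of 1 FPKM gave 0 for morula against 8-cell and 4 for the difference of the knockout effects. Without the filter the counts were 3 for 8-cell against 4-cell, 0 for morula against 8-cell and 1 for the difference. Scaled columns gave 3 for 8-cell against 4-cell, 3 for the knockdown and 4 for the difference. Fits of the compared groups alone gave 6 for 4-cell against L2-cell, 2 for 8-cell against 4-cell and 0 for morula against 8-cell. The causes were not tested. Leaving out 1 sample at a time, counts ran from 3 to 6 for L2-cell against E2-cell, 3 to 5 for 4-cell against L2-cell, 2 to 6 for 8-cell against 4-cell, 0 to 6 for morula against 8-cell, 0 to 1 for blastocyst against morula (Zscan4a, without either 8-cell column, at levels too low to read), 0 to 3 for the knockdown and 1 to 4 for the difference. A sample left alone in its group was assumed to vary like the other groups. With the replicate block no count moved past 1.5 times the reported one: the number called was 0 for zygote against MII, 6 for E2-cell against zygote, 4 for the Early2c knockout and 0 for the knockdown. Samples of equal number had residual correlations of -0.0922 to 0.093, so the numbers do not pair the samples. No log2 change that was called turned its sign. The summed family fell by 0.32 on the log2 scale in the Early2c knockout and by 0.40 in the knockdown. What limits the values is unknown depth, 2 columns per stage and copies that share reads.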
